A study of Columba livia with 6 samples.

Results

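LHX1, PAX2, PAX8, EMX2, TBX18 and WT1 are transcription factors of the urogenital ridge, and they were followed through the ovaries of 6 domestic pigeons (Columba livia). The rows were those whose gene name in the deposited table is one of these 6 symbols. This gave 9 of the 34346 rows, which stood for 5 of the symbols: 1 row for LHX1, 2 for PAX2, 3 for EMX2, 2 for TBX18, 1 for WT1 and 0 for PAX8, which was therefore not analysed here. The high egg production group (HP) had 3 ovaries (HP1, HP2 and HP3) and the low egg production group (LP) had 3 (LP4, LP5 and LP6), numbered as in the sample labels. All were whole ovaries of sexually mature females, given no treatment and aged 2 years, 1 bird to a library, taken from the highest and lowest layers of 1 flock hatched together. RNA depleted of ribosomal RNA was sequenced, and the deposited counts summed to between 99571171 and 108417842 in HP ovaries and between 97875183 and 108669967 in LP ovaries. The genes were chosen by their HP and LP expression values in these same ovaries, so their differences between the groups are given as a description, and a count of calls among them only restates that choice.

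The urogenital ridge is the strip of intermediate mesoderm and overlying coelomic epithelium that forms the embryonic kidneys, their ducts and the gonads. In mouse and chick, PAX2 and LHX1 mark and build the nephric duct and its tubules, and LHX1 is also needed for the Mullerian duct, from which the oviduct forms. WT1 and EMX2 are active in the coelomic epithelium and the early gonad, and WT1 persists in supporting cells of the adult gonad, while TBX18 marks urogenital and ureteral mesenchyme. LHX1, PAX2 and PAX8 are called kidney-type here, and EMX2, TBX18 and WT1 coelomic or mesenchymal, although EMX2 also acts in the kidney ducts.

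The 9 rows differed in how they were built. LHX1 lies on the plus strand of scaffold NW_004973287.1 of Cliv_1.0 from 645537 to 651419 and holds 1 reference transcript. PAX2 has a long row on the plus strand of NW_004973223.1 from 383961 to 465827, with 1 reference and 2 assembled transcripts. Its second row is a single assembled transcript of 543 bases, from 386204 to 386746, nested in the first on the same strand. WT1 lies on the plus strand of NW_004973198.1 from 9775256 to 9839639 and holds 5 transcripts. EMX2 has its coding row on the minus strand of NW_004973483.1 from 486825 to 493712, an assembled row on the opposite strand inside it from 487949 to 489123, and a short assembled row from 486139 to 486582, 242 bases away on the same strand. TBX18 has its coding row on the minus strand of NW_004973209.1 from 363222 to 384836, and an assembled row of 1943 bases from 361181 to 363123 that begins 98 bases beyond its 3′ end. The primer pair that the study designed on the TBX18 coding row is shown as the only sequence used here for that gene. The study lists it under that row's identifier, and the primers were not located on a genome (written 5′ to 3′, with no part marked).
TBX18 forward: ccagcaggaacccaccaatta
TBX18 reverse: gccttacttttgcagacacca
Rows that overlap share reads if counting ignored the strand or the nesting, and how the counts were made is not given in the sources used here. The values of both PAX2 rows, of the 2 overlapping EMX2 rows and of the WT1 row are therefore uncertain. The largest row that overlaps WT1, LOC110366287, held 8726 (LP5) to 12802 (LP6) counts, against 24703 (LP5) to 32177 (LP6) for WT1.

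The annotation in the table also separated the genes. The LHX1 row carried 69 Gene Ontology terms, of which 15 name the kidney, a nephric structure or the ureteric bud and 5 the oviduct, the uterus or the Mullerian (paramesonephric) duct. Terms were counted by these words, so nephron stages named without them were not counted. PAX2 carried 6 terms, 4 of them on the kidney or nephric duct. EMX2 had 1 kidney term of 11, TBX18 had 1 of 6, and WT1 had 0 of 4, although its role in the kidney is well known.

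LHX1 was low in every ovary and highest in 2 of the HP birds. Its counts were 106 (HP1), 362 (HP2) and 232 (HP3), against 33 (LP4), 72 (LP5) and 85 (LP6). As counts per 1000000 with TMM library factors (CPM), in the same order of ovaries, this was 0.964, 3.59 and 2.22 in the HP ovaries and 0.341, 0.727 and 0.793 in the LP ovaries. All HP ovaries lay above all LP ovaries, but HP1 was close to LP6, and HP2 and HP3 stood apart from the other 4. The means were 2.26 ± 1.32 CPM in HP and 0.620 ± 0.244 CPM in LP (SD, n = 3 each), and the log2 fold change was 1.86 (standard error 0.56). In bulk tissue, more cells of a type and more RNA per cell cannot be told apart.

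PAX2 had the largest difference of the 8 rows that passed the filter, and it was carried by HP2 and HP3 alone. The long row's counts were 18 (HP1), 539 (HP2) and 311 (HP3), against 10 (LP4), 21 (LP5) and 14 (LP6). HP1, at 0.164 CPM, lay inside the LP range of 0.103 to 0.212 CPM, whereas HP2 had 5.35 and HP3 2.97 CPM. The group means were 2.83 ± 2.60 CPM in HP and 0.149 ± 0.0565 CPM in LP (SD, n = 3 each), the log2 fold change was 4.24 (standard error 1.15), and the HP spread was 91.8% of its mean. The groups thus overlapped for the gene with the highest fold change.

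The nested PAX2 row, below the filter of a mean FPKM of 0.1, held 15 (HP1), 111 (HP2) and 58 (HP3) counts, against 0 (LP4), 11 (LP5) and 0 (LP6). HP2 and HP3 were again the highest ovaries. A count of 0 at this depth allows up to 3 counts, for counting error only, so LP4 and LP6 cannot be ordered here.

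PAX8, the third kidney-type factor, has no row to describe. For the other kidney-type rows, HP2 exceeded HP1 by more than counting error. The ratio of CPM in HP2 to HP1 was 32.7 for the long PAX2 row (95% exact interval 20.5 to 55.6), 8.08 for the nested row (4.69 to 14.9) and 3.73 for LHX1 (2.99 to 4.67). HP3 reached 0.555 of the HP2 level for the long PAX2 row (0.481 to 0.639), 0.503 for the nested row (0.359 to 0.697) and 0.617 for LHX1 (0.521 to 0.729). These intervals compare 2 libraries and cover counting error only.

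TBX18 was the one coelomic or mesenchymal gene with separate groups, and all 3 HP ovaries shared in it. The coding row had 8.74, 7.24 and 5.50 CPM in HP1, HP2 and HP3, against 1.92, 3.46 and 1.16 CPM in LP4, LP5 and LP6. The means were 7.16 ± 1.62 and 2.18 ± 1.17 CPM (SD, n = 3 each), and the log2 fold change was 1.71 (standard error 0.43). HP1, the lowest HP ovary for LHX1 and PAX2, was the highest for this row.

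The row beyond the 3′ end of TBX18 had 3.19, 3.39 and 3.16 CPM in HP1, HP2 and HP3, against 1.02, 1.67 and 0.383 CPM in LP4, LP5 and LP6. The coefficient of variation (SD over the mean) was 3.91% for its HP values and 62.7% for its LP values. The log2 fold change was 1.67 (standard error 0.51). LP5 was the highest and LP6 the lowest LP ovary in both rows. The downstream row held 33.1 to 57.5% as many counts as the coding row over the 6 ovaries. The rows are adjacent on 1 strand and are not taken as independent, and whether they are pieces of 1 transcript was not tested.

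WT1 and EMX2 were abundant and nearly level. WT1 had 278, 299.9 and 266 CPM in HP1, HP2 and HP3, against 307, 249 and 300.3 CPM in LP4, LP5 and LP6. The means were 281 ± 17.4 and 286 ± 31.6 CPM (SD, n = 3 each) and the log2 fold change was -0.02 (standard error 0.12). Its sign turned positive without HP3 (0.02), LP4 (0.03) or LP6 (0.01), and the groups overlapped.

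The coding row of EMX2 had 60.6, 65.3 and 73.2 CPM in HP1, HP2 and HP3, against 76.2, 61.0 and 79.0 CPM in LP4, LP5 and LP6 (log2 fold change -0.12, standard error 0.14). The row on the opposite strand had 1.81 to 2.31 CPM in HP ovaries and 2.24 to 2.82 CPM in LP ovaries, and the short downstream row 0.309 to 0.668 CPM in HP ovaries and 0.299 to 0.991 CPM in LP ovaries. Their log2 fold changes were -0.32 (standard error 0.23) and -0.49 (standard error 0.55). In all 3 EMX2 rows the groups overlapped and the highest ovary was from the LP group, which held the highest value in 51.7% of all tested rows.

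**Figure D1:**
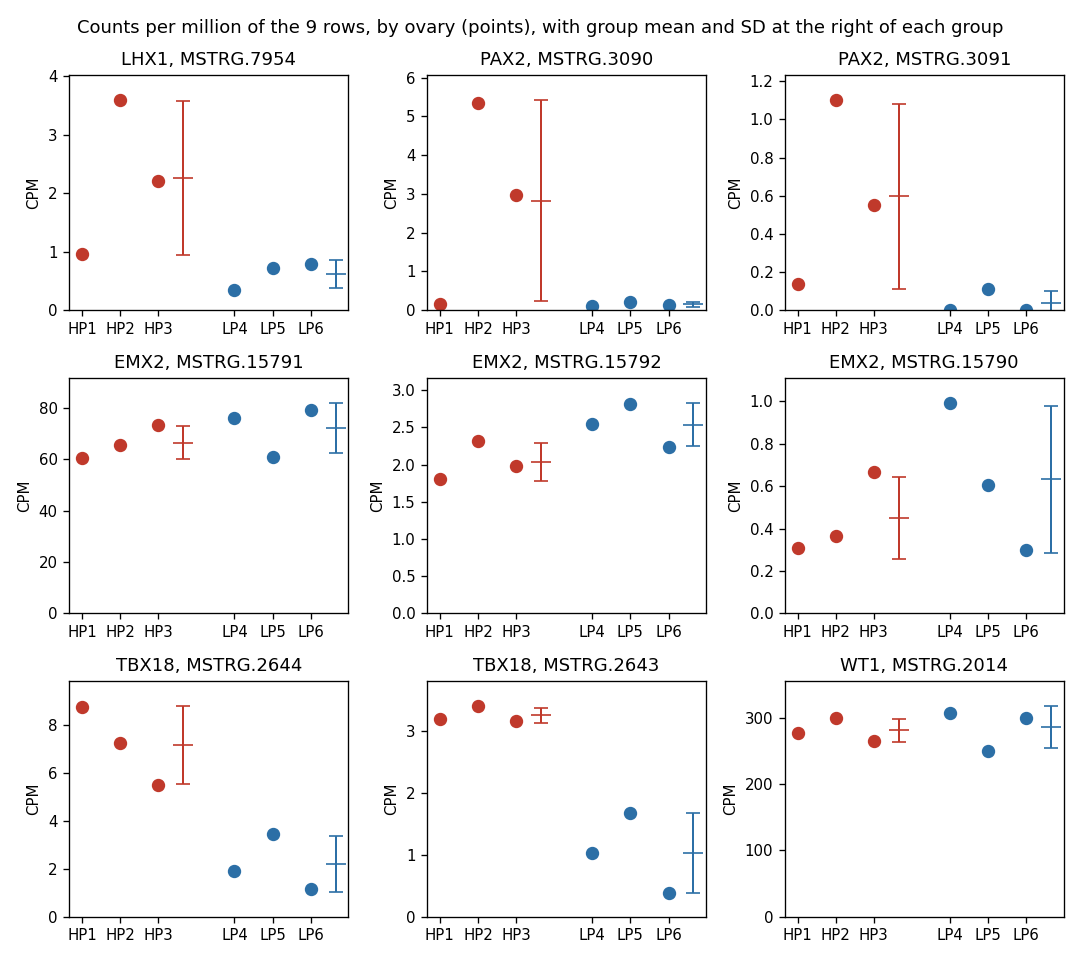
Each panel plots the CPM (linear axis from 0) of 1 row in HP1, HP2 and HP3 (red) and LP4, LP5 and LP6 (blue), with the group mean and SD beside the points. LHX1 and both PAX2 rows peak in HP2 and HP3, both TBX18 rows are high in all 3 HP ovaries, and WT1 and EMX2 overlap between the groups.

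Rows were called on the limits used for the whole table, p under 0.05 before adjustment together with group means of FPKM at least 1 apart on the log2 scale. Of the 8 rows that passed the filter, 4 were called, LHX1, the long PAX2 row and both TBX18 rows, all higher in HP. Over all 28274 tested rows, 3.11% were called, 2.09% higher and 1.02% lower in HP. Since these values chose the genes, nothing is read from the count. After adjustment over the whole table, 0 of the 8 rows passed 0.05, against 0.0106% of all tested rows. HP ovaries lay above LP ovaries without overlap in 3 of the 8 rows (7.38% of all tested rows, and 14.6% separated in either direction), LHX1 and the TBX18 rows. LHX1 followed the order HP2, HP3, HP1 and then the LP ovaries, which 1.78% of tested rows showed, and the TBX18 coding row the order HP1, HP2, HP3 and then the LP ovaries, which 0.98% showed. These orders were read from the same values that chose the genes, so nothing is read from their shares.

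**Figure D2:**
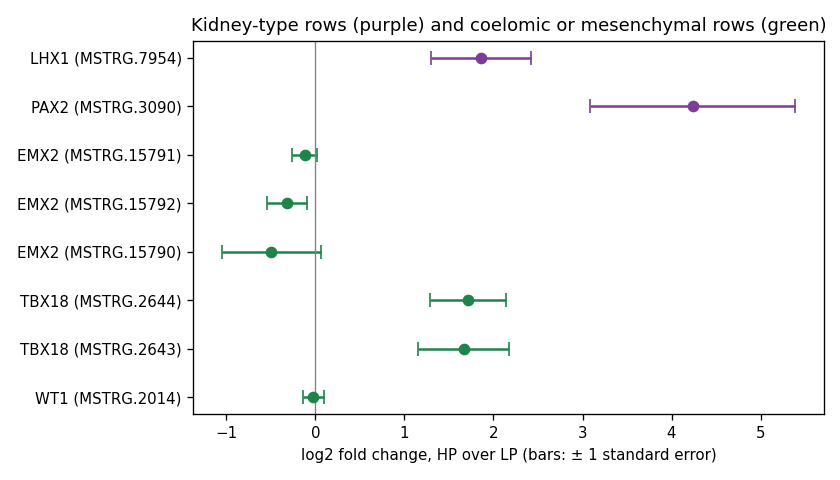
The log2 fold change of HP over LP (points) with 1 standard error to either side (bars) is drawn for the 8 rows that passed the filter, kidney-type in purple and coelomic or mesenchymal in green. PAX2 (4.24), LHX1 (1.86) and TBX18 (1.71 and 1.67) lie to the right of 0, and the bars of WT1 and of 2 of the 3 EMX2 rows reach 0.

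Levels can be compared between genes only per length. The deposited FPKM implies, from the ratio of counts to FPKM, a length that exceeds the genomic span of the row in 5 of the 9 rows, among them both TBX18 rows and the nested PAX2 row, and these were left out of the comparison. Among the other 4, the coding row of EMX2 stood at 86.8 ± 7.93 FPKM in HP and 91.4 ± 12.3 FPKM in LP, above WT1 at 53.8 ± 3.87 and 53.0 ± 5.87 FPKM (SD, n = 3 each). Their ranges over the 6 ovaries, 77.4 to 100.2 and 46.3 to 58.0 FPKM, did not overlap. This order rests on an implied length of 0.777 kb for EMX2, described in part as a partial protein, against 5.31 kb for WT1. In CPM the order was the reverse, with 60.6 to 79.0 for EMX2 and 249 to 307 for WT1. Which of the 2 genes was the higher is therefore not settled here. LHX1 had 1.44 ± 0.851 FPKM in HP and 0.379 ± 0.152 FPKM in LP, and PAX2 had 2.17 ± 2.01 and 0.106 ± 0.0433 FPKM (SD, n = 3 each). LHX1 and PAX2 could not be ordered, since their ranges of 0.204 to 2.31 and 0.0734 to 4.14 FPKM overlapped. EMX2 and WT1 were thus above LHX1 and PAX2 in every ovary, and TBX18 was not placed.

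The rows around PAX2 were examined within 50 kb, a choice made after the values were seen. LOC110357152 has a minus-strand row from 464457 to 570905 that overlaps the last 1371 bases of the long PAX2 row, with 0.355, 0.645 and 0.439 CPM in HP1, HP2 and HP3, against 0.351, 0.262 and 0.289 CPM in LP4, LP5 and LP6. A second row of that name, from 466766 to 470094 and 938 bases beyond PAX2, followed PAX2 closely. Its counts were 28 (HP1), 613 (HP2) and 382 (HP3), against 25 (LP4), 71 (LP5) and 39 (LP6). HP2 and HP3 were the highest here too, at 6.08 and 3.65 CPM, and HP1 (0.255 CPM) was below the LP ovaries (0.258 to 0.717 CPM). The other rows within that distance, LOC110357153 and an unnamed row from 346101, had at most 3.91 CPM, and HP2 did not stand out in them (2.01 and 3.22 CPM, against 2.02 and 2.43 CPM in HP1). The groups overlapped in the unnamed row. In LOC110357153 the HP ovaries, with 2.47 CPM in HP3, lay above LP4, LP5 and LP6 (0.671, 1.40 and 1.47 CPM), as in 7.38% of all tested rows.

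Near LHX1, LOC110359381 ends 21983 bases before it on the same strand and had 3.82, 4.05 and 1.87 CPM in HP1, HP2 and HP3, against 0.919, 1.74 and 0.233 CPM in LP4, LP5 and LP6. Its HP ovaries lay above the LP ovaries, with HP3 rather than HP1 as the lowest. LOC110359378, 24430 bases before LHX1 on the same strand, had 6.09, 10.5 and 6.74 CPM in HP1, HP2 and HP3, against 3.77, 4.67 and 4.01 CPM in LP4, LP5 and LP6, with the HP ovaries in the same order as for LHX1 and above the LP ovaries. AATF, 8040 bases beyond LHX1, had 24.6, 53.2 and 31.5 CPM in HP1, HP2 and HP3, and 22.2, 30.4 and 31.6 CPM in LP4, LP5 and LP6, so that HP2 alone stood out. In the remaining rows within 50 kb, LOC110359384 and ACACA, the groups overlapped and the highest ovary was from the LP group. LOC110359384 had 6.73, 7.04 and 8.70 CPM in HP1, HP2 and HP3, against 4.02, 9.49 and 5.77 CPM in LP4, LP5 and LP6. ACACA had 216, 222 and 251 CPM in the HP ovaries, against 226, 233 and 271 CPM in the LP ovaries. The 4 rows that overlap WT1 differed little between groups. The largest, LOC110366287 on the minus strand, which the table describes as a Wilms tumor protein, had 95.9 to 120 CPM in HP ovaries and 88.1 to 119 CPM in LP ovaries.

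Other genes that form the kidney and its ducts were taken as a list of 37, of which 33 were matched, in 38 rows. This list and all others below were chosen with earlier results of these data known. Their counts and shares are therefore given as a description and not as a test. Of the 33 tested rows, 4 rose in HP by the limits above (2.09% of all tested rows), 0 fell, and the median log2 fold change was 0.35, against -0.01 over all tested rows.

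GRHL2, a grainyhead factor of duct and other epithelia, had 2.36, 8.39 and 7.38 CPM in HP1, HP2 and HP3, against 0.682, 2.43 and 2.15 CPM in LP4, LP5 and LP6, with HP1 among the LP ovaries, as for PAX2 (log2 fold change 1.78, standard error 0.63). EYA1, a co-activator needed to start the metanephric kidney, had 1.31, 1.40 and 3.05 CPM in HP1, HP2 and HP3, against 0.589, 0.838 and 0.812 CPM in LP4, LP5 and LP6 (log2 fold change 1.36, standard error 0.41). IRX1, an Iroquois factor of the nephron segments, had 4.92, 9.86 and 1.72 CPM in HP1, HP2 and HP3, against 0.320, 2.49 and 0.364 CPM in LP4, LP5 and LP6 (log2 fold change 2.37, standard error 0.99). These 3 genes had adjusted p-values between 0.583 and 0.604 in edgeR's test and between 0.124 and 0.169 in DESeq2's. With 1 ovary left out, GRHL2 met the limits only without HP1 or LP5, IRX1 only without HP3 or LP5, and EYA1 in each case but that without HP3. The list had 2 called rows without LP4 and 7 without LP5. The highest fitted change belonged to HOXC11 (log2 fold change 3.56, standard error 1.60), a posterior HOX gene, which was at 0 counts in LP4 and LP6 and met the limits with DESeq2, with limma and without LP5, but not with edgeR on all ovaries. SIX2, a factor of nephron progenitors, had the lowest (-0.95, standard error 0.62), and it met the limits, lower in HP, only without HP1 or without LP6.

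Genes of the coelomic epithelium and gonadal ridge gave no such rows. For 25 genes, 22 were matched in 35 rows, all tested, and 0 rose or fell by the limits (2 passed 0.05 before adjustment in edgeR's test, as did 8.24% of all tested rows, and 0 were called with DESeq2), with a median log2 fold change of -0.06. The ends of the list were NR5A1, the regulator of steroid synthesis genes (-0.79, standard error 0.32, in a row shared with LOC110355073), and an assembled GATA4 row (1.51, standard error 0.76). That GATA4 row held only 24 to 183 counts. The other rows that name GATA4 had log2 fold changes of -0.30, -0.16, -0.69 and -0.05, so the gene as a whole was not the highest of the list. The list had 1 called row without HP1, 2 without HP2 and 1 without HP3.

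Tubule and podocyte genes of the kidney were most often highest in HP2. Of 30 genes, 24 were matched, in 28 rows. Because this list too was chosen with earlier results of these data known, nothing is read from its shares. Of the 26 tested rows, 5 rose in HP by the limits (2.09% of all tested rows) and 0 fell, with a median log2 fold change of 1.004, and 17 of the 26 were highest in HP2 (17.4% of all tested rows), against 0 in HP3. Among these rows were SLC12A1, the salt carrier of the thick ascending limb, SLC6A19, an amino acid carrier of the proximal tubule, CUBN, a receptor for protein uptake, and an ATP6V1B1 row, a proton pump subunit of intercalated cells. SLC6A19 had 0.236, 17.6 and 0.172 CPM in HP1, HP2 and HP3, against 0.196, 0 and 0.0840 CPM in LP4, LP5 and LP6. SLC12A1 had 0.618, 19.9 and 0.277 CPM in the same HP ovaries, against 0.351, 0.0606 and 0.429 CPM in the same LP ovaries. For both, 5 of the 6 ovaries were low and HP2 alone was high, and neither met the limits without HP2 or without any 1 of the LP ovaries. Their log2 fold changes were 5.99 (standard error 2.20) and 4.62 (standard error 1.75), with adjusted p-values of 0.586 and 0.594 by edgeR. Neither SLC6A19 nor SLC12A1 met the limits with DESeq2 or with limma. The list had 8 called rows without HP1, 1 without HP2, 9 without HP3, 2 without LP4, 1 without LP5 and 3 without LP6. The ATP6V1B1 row was called in all 6 of these fits, with 10.0, 109 and 3.06 CPM in HP1, HP2 and HP3, against 0.124, 0.262 and 1.80 CPM in LP4, LP5 and LP6. This row was also called with DESeq2 and with limma at either pseudocount. Its log2 fold change was 5.79 (standard error 1.72), with an adjusted p-value of 0.573 in edgeR's test and 0.0295 in DESeq2's. The lowest of the list was an AQP3 row, a water channel of the collecting duct (log2 fold change -0.66, standard error 0.22, adjusted p = 0.584 in edgeR's test), for which the HP ovaries lay below the LP ovaries. That held for 3 of the 26 rows (2028 of the 28274 tested rows), among them a row that SYNPO shares with MYOZ3 (-0.39, standard error 0.14). HP ovaries lay above LP ovaries in 1 row (7.38% of all tested rows). The highest ovary was from the LP group in 8 of the 26 rows (51.7% of all tested rows), AQP1 among them (-0.53, standard error 0.30).

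The ratio of HP3 to HP2 differed between the kidney-type factors and SLC12A1 and SLC6A19. It was 0.555 for PAX2 and 0.617 for LHX1, against 0.0139 for SLC12A1 (0.00929 to 0.0201) and 0.00977 for SLC6A19 (0.00578 to 0.0155). GRHL2 was nearly equal in both ovaries at 0.880 (0.797 to 0.971). Other rows of the kidney-forming and the tubule and podocyte lists overlapped in this ratio, so it did not divide the lists. Among kidney-forming rows, IRX1 stood at 0.174 and GATA3 at 0.401. Among tubule and podocyte rows, CUBN stood at 0.311, a second ATP6V1B1 row at 0.714 and an AQP3 row at 1.61. Of the 26 tested tubule and podocyte rows, 11 had at least 3 times as much CPM in HP2 as in HP1, and 2 of these 11, a CLDN10 row and the second ATP6V1B1 row, also did so in HP3. The long PAX2 row passed that ratio in both ovaries, but LHX1 passed it in HP2 alone (2.30 in HP3). Over all tested rows, 1274 had such a ratio in HP2 (4.51%) and 683 of those had it in HP3 as well. These are ratios between single libraries and not between conditions.

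**Figure D3:**
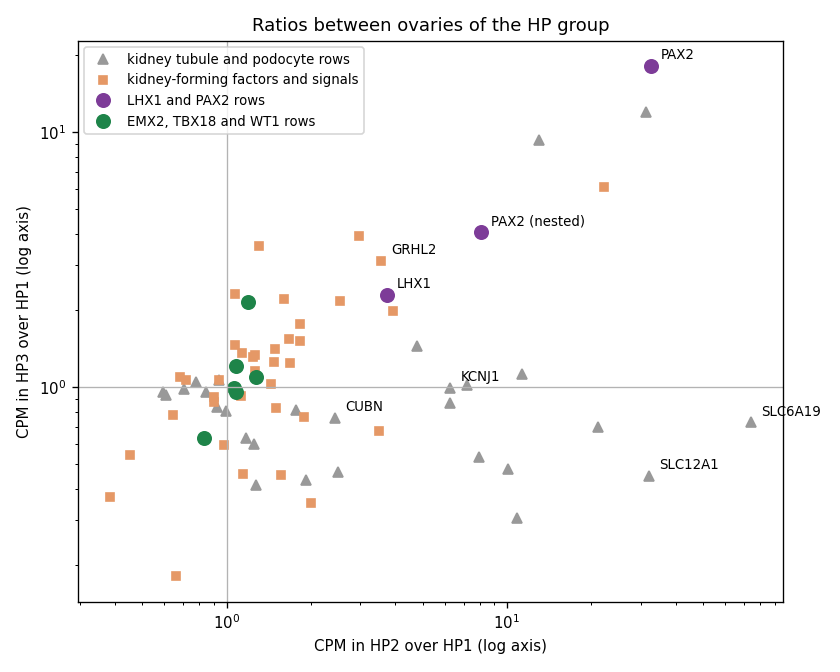
Each point is a row, with its CPM in HP2 over HP1 on the horizontal axis and its CPM in HP3 over HP1 on the vertical axis, both logarithmic. PAX2 (32.7 and 18.1) and LHX1 (3.73 and 2.30) lie to the upper right, SLC6A19 and SLC12A1 far to the right and below 1 on the vertical axis, and WT1, the downstream TBX18 row and 2 of the EMX2 rows near the crossing of the lines at 1. The short EMX2 row is higher in HP3 (2.16) and the TBX18 coding row lower (0.629).

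Oviduct and general epithelial genes were compared because LHX1 and PAX2 are also known from the Mullerian duct. Of 19 oviduct and Mullerian duct genes, 9 were matched, in 10 tested rows, and 0 met the limits (0 passed 0.05 before adjustment in edgeR's test, and 0 were called with DESeq2, but 1 without LP4), with a median log2 fold change of 0.05. The genes without a row were AMHR2, AVD, HOXA13, OVALX, OVALY, OVGP1, SOX17, SPINK7, TF and WNT7A, so the count of calls does not cover them. A PGR row made up 49.3% of the summed CPM of the matched rows. MSX1 had the lowest change (-0.54, standard error 0.27) and CALB1 the highest (1.53, standard error 1.15), CALB1 with 51.1 CPM in HP2 and at most 18.2 CPM in any other ovary. The same CALB1 row is also on the tubule and podocyte list, and it was the oviduct row called without LP4. Of 20 epithelial genes, 14 were matched in 15 tested rows, 3 of which rose in HP by the limits (2.09% of all tested rows), 0 fell, and the median was 0.24. Besides GRHL2, these were CLDN3, a tight junction claudin, with 0.182, 1.21 and 2.53 CPM in HP1, HP2 and HP3, against 0.114, 0.303 and 0.0373 CPM in LP4, LP5 and LP6, and EHF, an ETS factor of epithelia, with 0.0546, 1.07 and 0.353 CPM in the HP ovaries, against 0.0826, 0 and 0 CPM in the LP ovaries. HP1 lay within the LP range for both. The broad epithelial genes CDH1 and EPCAM were present in every ovary, at 15.7 to 32.2 and 89.7 to 145 CPM in HP and 20.0 to 25.4 and 90.2 to 102 CPM in LP. CLDN3 and EHF had adjusted p-values of 0.584 and 0.595 in edgeR's test and of 0.118 and 0.287 in DESeq2's. The list had 1 called row without HP2 or without LP4 and 0 without HP3 or without LP6. ELF3 had the lowest change of the list (-0.06, standard error 0.43).

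**Figure D4:**
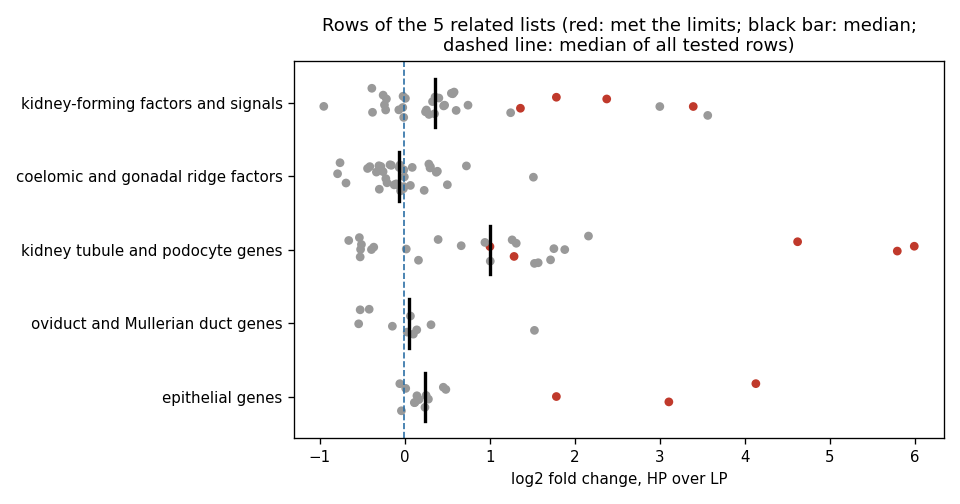
Points are the tested rows of the 5 lists by log2 fold change of HP over LP, red where the limits were met, with the list median as a black bar and the median of all tested rows (-0.01) as a dashed line. The medians are 0.35, -0.06, 1.004, 0.05 and 0.24 from top to bottom.

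Markers of other cells of the ovary were summed in CPM beside these results. Oocyte genes were present in every ovary (942 to 1407 CPM in HP, 893 to 1147 CPM in LP), as were granulosa genes (491 to 1013 and 740 to 918 CPM). ZP2 made up 60.2% of the oocyte sum and AMH 52.6% of the granulosa sum. Kidney tubule and podocyte genes summed to 921, 1604 and 826 CPM in HP1, HP2 and HP3, against 1061, 1013 and 789 CPM in LP4, LP5 and LP6, and 0 of its 28 rows were at 0 counts in every ovary. A row that SLC4A4 shares with DCK and MOB1B made up 32.9% of this sum over the ovaries, at 311 to 385 CPM in each. The sum is therefore not a measure of kidney cells alone, and SLC6A19 and SLC12A1 were low in every ovary but HP2. Stroma and fibroblast genes were lower in HP (2543, 1539 and 1929 CPM) than in LP (2940, 3283 and 2651 CPM), and smooth muscle genes stood at 886, 479 and 911 CPM in HP and at 1679, 3270 and 575 CPM in LP. Adrenal and chromaffin genes summed to 82.5, 74.6 and 198 CPM in HP and 91.7, 122 and 83.5 CPM in LP, and all 8 of its tested rows were highest in HP3 (16.0% of all tested rows). For mesothelium, 2 of 7 markers were matched, at 21.1 to 31.6 CPM in HP and 21.3 to 27.7 CPM in LP. BNC1 made up 97.4% of this sum, and it did not meet the limits (log2 fold change 0.15, standard error 0.20). The other marker, UPK1B, met them, higher in HP (log2 fold change 1.10, standard error 0.42). It had 0.927, 1.28 and 0.573 CPM in HP1, HP2 and HP3, against 0.578, 0.374 and 0.345 CPM in LP4, LP5 and LP6. The part of these cell types in the values of PAX2, LHX1 and TBX18 was not tested.

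The genes whose pattern over the 6 ovaries was most like each factor were found by the Pearson correlation of log2 CPM, as a measure of likeness without a test. They were ACSL6, CAMKMT and EIF6 for LHX1, SLC15A5, a row of GATC and DYNLL1, and MBTD1 for PAX2, ADAMTS17, LOC110364811 and LOC110365568 for TBX18, LRGUK, PSMA5 and GRK7 for EMX2, and LOC102090999, BBX and a row of HADH and LOC102085001 for WT1. The likeness of these first 3 rows was between 0.985 and 0.997, but with so few ovaries it is easily reached. Of 19013 rows compared, 249 exceeded 0.9 for LHX1, 228 for PAX2, 112 for EMX2 and 118 for WT1, and of 19014 rows 191 did so for TBX18. MBTD1 had 0, 1.42 and 0.602 CPM in HP1, HP2 and HP3, against 0, 0.0202 and 0 CPM in LP4, LP5 and LP6, and LOC110364811 had 57.3, 47.0 and 42.2 CPM in the HP ovaries, against 12.1, 19.3 and 7.44 CPM in the LP ovaries. The measure ignores the size of a change, which was small in some of these rows. ACSL6 had 54.0, 71.0 and 65.3 CPM in HP1, HP2 and HP3, against 41.7, 51.0 and 51.7 CPM in LP4, LP5 and LP6.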

How the data were processed

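Per the study's methods and the submitters' processing notes, reads were trimmed (cutadapt 1.9), inspected (FastQC 0.10.1) and aligned to the Cliv_1.0 assembly (Bowtie2, HISAT2 2.0.4). The authors then assembled and merged transcripts with StringTie 1.3.4, and quantified them with StringTie and Ballgown, and the notes also name edgeR. The authors deposited whole-number counts per row, not normalized, and FPKM values per row. The study's methods describe libraries with a second DNA strand labelled with dUTP. How the counts were made from them, and whether the counting used strand, is not given in the sources used here. Of the columns of per-ovary values, 0 were left out.

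HP and LP ovaries were compared on the counts with edgeR 4.0.16 (quasi-likelihood test, TMM, two-sided, no covariates, R 4.3.3) over the 28274 rows with a mean FPKM of at least 0.1. Benjamini-Hochberg adjustment ran over all of these. A row was called where p before adjustment was under 0.05 and the group means of FPKM lay at least 1 apart on the log2 scale. The standard errors given are the absolute log2 fold change divided by the square root of the quasi-likelihood F statistic. They were thus derived from the test and not estimated separately. The estimated biological coefficient of variation was 0.423, and with 3 ovaries a group the spread between birds, not depth, limits the precision in rows with many counts. In rows with few counts, such as PAX2 in the LP ovaries, counting error limits it as well. A permutation test of 3 against 3 cannot go below an exact two-sided p of 0.1. CPM are counts scaled to library totals with TMM factors. Intervals of ratios between 2 libraries are exact 95% intervals. The fits were tested on simulated data. Alternatives were DESeq2 1.42.0, upper-quartile scaling, no filter, limma 3.58.1 on log2(FPKM + 1) and log2(FPKM + 0.1), and leaving out each ovary. Python 3.11.15 with pandas 2.3.3 and scipy 1.17.1 was used for the rest.

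The 6 genes and all lists were chosen with earlier results of these data known. The genes named are the rows of the 6 symbols and those that overlap them, list rows that met the limits, the ends of each list, and the 3 named rows most alike to each factor (mean FPKM of at least 0.5). Neighbours within 50 kb, the ratios between HP ovaries and the Gene Ontology kidney rows were chosen after the values were seen. No genome sequence was used here. Some rows of the lists are counted but not reported by name here.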

Additional observations from a re-analysis of the deposited data

How the results depend on the processing

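LHX1, PAX2 and TBX18 were chosen by these values, so their steady sign restates the choice. Leaving out 1 ovary at a time gave 1.35 to 2.23 for LHX1, 3.39 to 4.80 for PAX2, 1.41 to 2.22 for the coding row and 1.27 to 2.21 for the second row of TBX18, -0.11 to 0.03 for WT1, and -0.23 to -0.05, -0.42 to -0.24 and -0.90 to -0.01 for the EMX2 rows from 486825, 487949 and 486139. LHX1 and PAX2 were lowest without HP2. Limma on log2(FPKM + 1), where a pseudocount shrinks low rows, gave 0.77 for LHX1, 1.26 for PAX2, 0.21 and 0.51 for the coding and second rows of TBX18, and -0.03 for the EMX2 row from 487949, and log2(FPKM + 0.1) gave 1.01 for the TBX18 coding row and -0.14 for that EMX2 row. Without a filter the nested PAX2 row had 3.98. Over all rows, 702 to 1058 met the limits without 1 ovary, against 880, and 0 (without LP6) to 7 (without LP4) had an adjusted p-value under 0.05, against 3. That count was 385 with DESeq2, 6 with limma on log2(FPKM + 1) and 5 on log2(FPKM + 0.1). Without 1 ovary, 2 to 7 kidney-forming rows met the limits (2 without LP4, 7 without LP5), 0 to 2 coelomic rows, 1 to 9 tubule and podocyte rows (1 without HP2 or LP5, 9 without HP3), 0 to 1 oviduct rows and 0 to 3 epithelial rows. Limma with either pseudocount gave 2 tubule and podocyte rows, and log2(FPKM + 1) gave 1 epithelial row. The causes of these differences were not tested, and limma changed the input to FPKM and the test as well as adding a pseudocount. No paired analysis was possible because each ovary came from a separate bird and no matching of HP to LP birds is given. Groups of 3 are too small to single out 1 ovary by a test, and PAX2 in LP rests on 10 to 21 counts.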

Other observations

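An unnamed assembled row on the minus strand of NW_004973198.1 from 9839656 to 9880686, which starts 16 bases beyond WT1, held 9 (HP1), 11 (HP2) and 1305 (HP3) counts, against 5 (LP4), 4 (LP5) and 10 (LP6). WT1 itself was level, with HP3 the lowest HP ovary for it. An unnamed plus-strand row that overlaps the far end of the minus-strand row, from 9858610 to 9880762, held 2671 (HP1), 3909 (HP2) and 1565 (HP3) counts, against 4820 (LP4), 2119 (LP5) and 3404 (LP6), and HP3 was the lowest ovary there. A further unnamed plus-strand row that overlaps that end, from 9864600 to 9905457, did not share this. It held 2549 (HP1), 3525 (HP2) and 3603 (HP3) counts, against 7231 (LP4), 2793 (LP5) and 4079 (LP6). These rows were singled out after their values were seen.

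Among rows other than those of the 6 genes that carry a Gene Ontology term for the kidney, nephron, glomerulus or ureteric bud, 169 were tested, 4 rose and 0 fell by the limits of the report (2.09% and 1.02% of all tested rows), and the median log2 fold change was 0.07. EYA1 and IRX1, described in the report, were among the rows that rose.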
